A study of Mus musculus with 5 samples.

Results

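The genes described here are 8 transcripts of the B cell antigen receptor and of secreted antibody, read in sorted regulatory T (Treg) cells. They are the immunoglobulin heavy chain constant genes Ighm, Ighg1, Ighg2b and Ighe, the kappa light chain constant gene Igkc, the receptor signalling chains Cd79a and Cd79b, and Ms4a1, which encodes the B cell surface protein CD20. They were taken by gene symbol from 38130 entries in each of 5 tables, and all 8 were found. They were chosen by their FPKM, because class-switched transcripts were high in the library from Malt1-deleted Treg cells, so the values of that library are a description and carry no test. Ighg1, Ighe and Igkc were highest in the Malt1-deleted library. The 2 libraries with a Malt1 substitution differed in these genes, with higher values in 1 than in the other. Ighe passed a filter on low values only through the Malt1-deleted library. In the higher of the 2, Igkc was not apart from the wild-type library of the same age. Cd79a, Cd79b and Ms4a1 had another pattern, with their highest values in the wild-type libraries of both ages. Ighm was abundant throughout.

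RNA was sequenced from CD4+YFP+ Treg cells of C57BL/6 mice, in 5 libraries and 4 groups, all with a Cre and yellow fluorescent protein reporter driven by Foxp3, the defining transcription factor of Treg cells. KO cells came from Foxp3Cre-YFP /malt1fl/fl mice aged 21 days (1 library), in which the labels give Malt1 as deleted in Treg cells, and they are set against wild-type (WT) cells of Foxp3-Cre-YFP reporter mice aged 21 days (1 library). KI cells came from Foxp3Cre-YFP /malt1fl/C472A mice aged 6 weeks (2 libraries), for which the labels give inhibited Malt1 protease activity, and they are set against WT reporter cells aged 6 weeks (1 library). KI carries a floxed and a C472A allele, so it differs from WT in more than the substitution. Malt1 encodes a paracaspase that carries antigen receptor signals to NF-kB in T and B cells.

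Heavy chain constant genes lie one after the other on a chromosome, and a B cell first joins its variable region to Ighm. In class switching, the DNA is cut and rejoined so that the variable region comes to lie before a downstream gene such as Ighg1 (IgG1) or Ighe (IgE). IL-4 from T cells is the classical signal for switching to IgG1 and IgE in mice. A germline transcript that starts before an unswitched constant gene also carries that gene's exons, so a gene-level value does not tell switched from germline transcripts. Cd79a and Cd79b carry the signal of the membrane receptor, and plasma cells, which secrete antibody, keep little of Ms4a1.

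All values below are FPKM, fragments mapped to a gene relative to its length and to sequencing depth, divided by a scaling factor per library, called scaled FPKM. The authors' lower and upper bounds lie 2 standard errors (SE) from a value and hold the error of counting and assigning fragments, not differences between mice. Depth, as estimated from these bounds, came to 8.33 M (mega) fragments in KO and 31.5 M in WT at 21 days, and to 27.2 M in KI replicate 1, 26.8 M in KI replicate 2 and 7.43 M in WT at 6 weeks, so each age-matched comparison sets a shallow against a deep library. Malt1 itself was at 17.6 in KO and 27.0 in WT at 21 days, and at 55.9 and 37.8 in KI replicates 1 and 2 against 15.2 in WT at 6 weeks, so its level does not set the library labelled KO apart from both WT libraries. Foxp3 was at 30.5 in KO against 70.7 in WT at 21 days, and at 70.1 and 73.6 in KI replicates 1 and 2 against 39.5 in WT at 6 weeks. Cd3e, a chain of the T cell receptor complex, lay between 150 and 253 in the 5 libraries. Of the 11 genes on a list of T cell and Treg markers, all were at 1 or more in every library. In KO, 4 were lower and 0 higher than in WT at 21 days by over 2-fold, beside 8.15% and 6.14% of all genes tested. Of the 4, Ctla4, an inhibitory receptor of Treg cells, was at 118 in KO and 395 in WT at 21 days.

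The IgG genes are close relatives, and the sequences below show whether reads of Ighg1 could be taken for reads of another class. The CH1 exon codes for the first constant domain, and capitals mark bases that differ from Ighg1, on the minus strand of chromosome 12, build GRCm38, with exons from GENCODE M21. C57BL/6 mice carry Ighg2c in place of the Ighg2a of some other strains.
Ighg1 CH1, chr12:113330233-113330523: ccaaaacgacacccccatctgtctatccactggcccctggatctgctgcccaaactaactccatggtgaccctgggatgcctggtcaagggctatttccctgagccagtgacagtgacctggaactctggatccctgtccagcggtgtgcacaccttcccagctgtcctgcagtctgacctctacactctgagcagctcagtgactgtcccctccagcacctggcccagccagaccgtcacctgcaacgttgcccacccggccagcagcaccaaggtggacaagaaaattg
Ighg2b CH1, chr12:113307643-113307933: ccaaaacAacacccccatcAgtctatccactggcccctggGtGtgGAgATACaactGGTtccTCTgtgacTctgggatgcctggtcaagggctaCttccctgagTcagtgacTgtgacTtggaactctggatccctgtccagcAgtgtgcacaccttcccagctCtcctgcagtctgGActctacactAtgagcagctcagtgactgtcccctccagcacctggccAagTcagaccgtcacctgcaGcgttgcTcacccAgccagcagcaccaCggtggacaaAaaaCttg
Ighg2c CH1, chr12:113288642-113288932: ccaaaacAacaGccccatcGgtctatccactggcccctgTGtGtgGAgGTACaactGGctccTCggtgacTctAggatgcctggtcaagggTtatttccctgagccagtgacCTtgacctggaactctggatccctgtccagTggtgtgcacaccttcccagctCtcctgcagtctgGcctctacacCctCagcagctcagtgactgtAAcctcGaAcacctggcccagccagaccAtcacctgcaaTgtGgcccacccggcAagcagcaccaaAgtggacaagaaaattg
Ighg2b differed from Ighg1 at 34 of these 291 bases and Ighg2c at 35, spread over the exon. Over the whole annotated transcripts, Ighg1 shared none of its 1027 stretches of 50 bases with Ighm, Ighe or any other IgG gene shown here, and Ighe shared none of its 1318. Ighg2b and Ighg2c shared 56 such stretches, which are 5.26% of those of Ighg2b and 4.81% of those of Ighg2c, so their low values are the least certain. The sources used here do not give the read length or how reads with several matches were handled.

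The hinge exons, which link the arms of an antibody to its stem and hold the cysteines that join the heavy chains, differ more. Here capitals mark in-frame cysteine codons.
Ighg1 hinge, chr12:113329844-113329882: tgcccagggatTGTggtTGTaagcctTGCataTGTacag
Ighg2b hinge, chr12:113307261-113307326: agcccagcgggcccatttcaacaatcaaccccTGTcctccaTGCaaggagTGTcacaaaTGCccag
Ighg2c hinge, chr12:113288263-113288325: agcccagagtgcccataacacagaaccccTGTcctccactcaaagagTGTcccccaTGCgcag
Ighg3 hinge, chr12:113360529-113360576: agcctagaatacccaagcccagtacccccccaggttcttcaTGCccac
The exon is 39 bases long in Ighg1 and 66 in Ighg2b, with 4 cysteine codons in each, 63 bases with 3 in Ighg2c and 48 bases with 1 in Ighg3. In the deposited tables the gene models span 12:113418950-113422730 for Ighm, 12:113328976-113330523 for Ighg1, 12:113306389-113307933 for Ighg2b and 12:113271180-113273246 for Ighe. GENCODE M21 spans more by 392, 3736, 3424 and 1922 bases in the same order, nearly all of them 3′. Membrane and secreted forms, which differ at that end, were therefore not separated.

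Ighm, the constant gene of IgM, was abundant in all 5 libraries. It was at 216 in KO (bounds 206 to 226) and 187 in WT at 21 days (180 to 193), and at 122 in KI replicate 1 (117 to 127), 205 in KI replicate 2 (198 to 213) and 299 in WT at 6 weeks (286 to 312). WT at 6 weeks was highest and KI replicate 1 lowest, and KO lay between the WT libraries. The bounds of KO and KI replicate 2 overlapped. By level, Ighm ranked from 153 to 396 among the 11294 genes tested, so its transcript belonged to the abundant ones in these sorted cells.

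Ighg1, the constant gene of IgG1, was high in 2 of the 5 libraries. It was at 164 in KO (bounds 155 to 172) against 5.97 in WT at 21 days (4.98 to 6.96), a ratio of 27.4. It was at 48.0 in KI replicate 1 (44.9 to 51.1), 0.964 in KI replicate 2 (0.553 to 1.37) and 0.912 in WT at 6 weeks (0.267 to 1.56). Behind these values stood about 1611 fragments in KO and 146 in WT at 21 days, and 955 in KI replicate 1, 22 in KI replicate 2 and 8 in WT at 6 weeks. KI replicate 2 and WT at 6 weeks had overlapping bounds, and KO, KI replicate 1 and WT at 21 days each lay apart from every other library.

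Ighe, the constant gene of IgE, was also highest in KO and next highest in KI replicate 1, at lower levels. It was at 15.5 in KO (13.4 to 17.5) against 0.299 in WT at 21 days (0.126 to 0.472), and at 1.98 in KI replicate 1 (1.49 to 2.48), 0.0508 in KI replicate 2 (0 to 0.123) and 0.292 in WT at 6 weeks (0 to 0.583). KO and KI replicate 1 lay apart from the rest, and the bounds of both WT libraries overlapped. Ighg2b was at 1.72 in KO (0.929 to 2.51) against 0.0356 in WT at 21 days (0 to 0.107), and at 1.16 in KI replicate 1 (0.710 to 1.60), 0.0370 in KI replicate 2 (0 to 0.111) and 0.413 in WT at 6 weeks (0 to 0.826). The bounds of KO and KI replicate 1 overlapped for Ighg2b, as did those of KI replicate 1 and WT at 6 weeks, and no library held more than about 27 fragments of it.

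**Figure D1:**
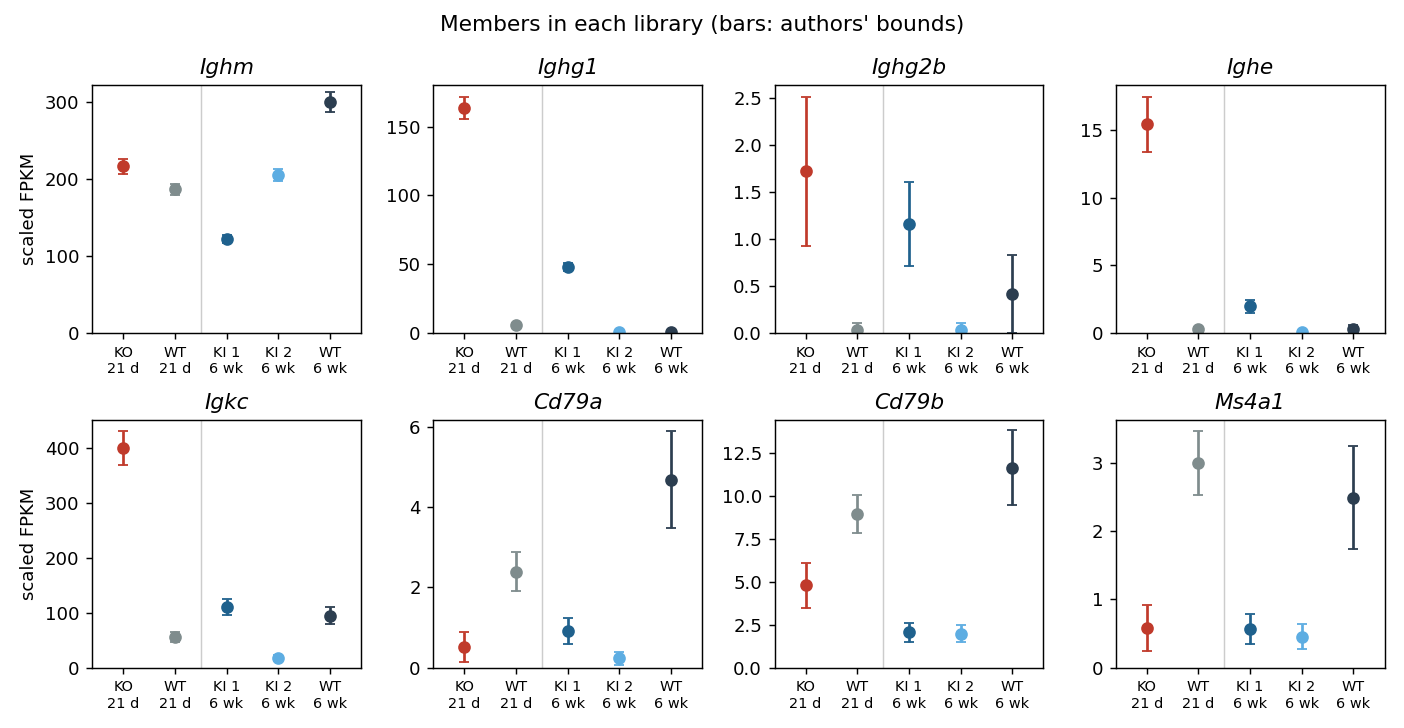
Scaled FPKM of the 8 genes (vertical axis, from 0, 1 scale per gene) in KO and WT at 21 days and in KI replicates 1 and 2 and WT at 6 weeks; points are values and bars the authors' bounds at 2 SE. Ighg1, Ighe and Igkc are highest in KO, at 164, 15.5 and 399, while Cd79a, Cd79b and Ms4a1 are higher in both WT libraries than in KO or KI.

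The other heavy chain genes of the locus were taken from a list. Ighg2c was at 4.08 in KO and listed at 0 in WT at 21 days, and at 3.77 in KI replicate 1, listed at 0 in KI replicate 2 and at 0.483 in WT at 6 weeks. It thus had about 56 fragments in KO and 114 in KI replicate 1, and at most 6 in any other library. Ighg3 was at 2.38 in KO and 0.272 in WT at 21 days, listed at 0 in KI replicate 1, and at 0.0713 in KI replicate 2 and 0.195 in WT at 6 weeks. Of the switched classes, KI replicate 1 thus held Ighg1, Ighg2c, Ighe and Ighg2b, and KO held these and Ighg3. Igha, Ighd and Iglc1 were not analysed here.

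**Figure D2:**
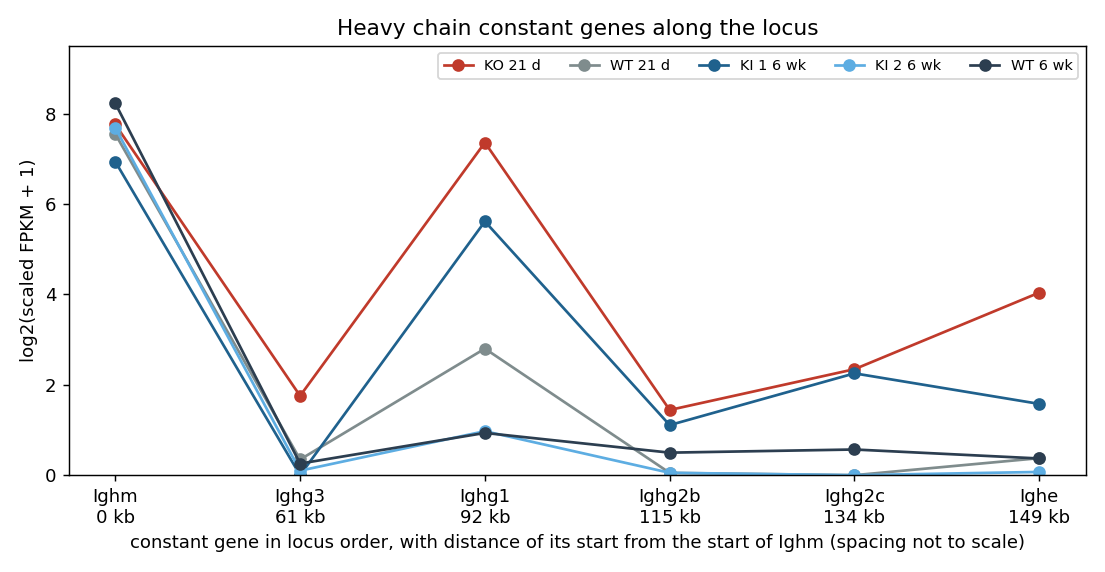
Level of 6 heavy chain constant genes as log2(scaled FPKM + 1) (vertical axis) in locus order, with the distance of each start from the start of Ighm in kb under its name (not to scale); each line is a library. Ighm is high in all 5, and KO and KI replicate 1 peak again at Ighg1, at 164 and 48.0 scaled FPKM.

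Ratios within a library do not depend on the scaling between libraries. The FPKM of Ighm, Ighg3, Ighg1, Ighg2b, Ighg2c and Ighe were summed in each library, without Igha and Ighd. The switched genes, all but Ighm, made up 46.4% ± 0.806 of this sum in KO and 3.41% ± 0.263 in WT at 21 days (SE from the bounds). They made up 31.1% ± 0.781 in KI replicate 1, 0.545% ± 0.106 in KI replicate 2 and 0.761% ± 0.157 in WT at 6 weeks. The share in KI replicate 1 was nearer to that of KO than to that of its own replicate. Within the switched sum, Ighg1 took 87.4% in KO and 90.8% in WT at 21 days, and 87.4% in KI replicate 1, 85.8% in KI replicate 2 and 39.8% in WT at 6 weeks, where the sum itself was 2.29 scaled FPKM. Ighe took 8.26% in KO and 4.54% in WT at 21 days, and 3.61% in KI replicate 1. Per Ighg1, the FPKM of Ighe were 0.0946 ± 0.00664 in KO against 0.0501 ± 0.0151 in WT at 21 days, with 0.0413 ± 0.00532 for KI replicate 1 (SE from the bounds).

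**Figure D3:**
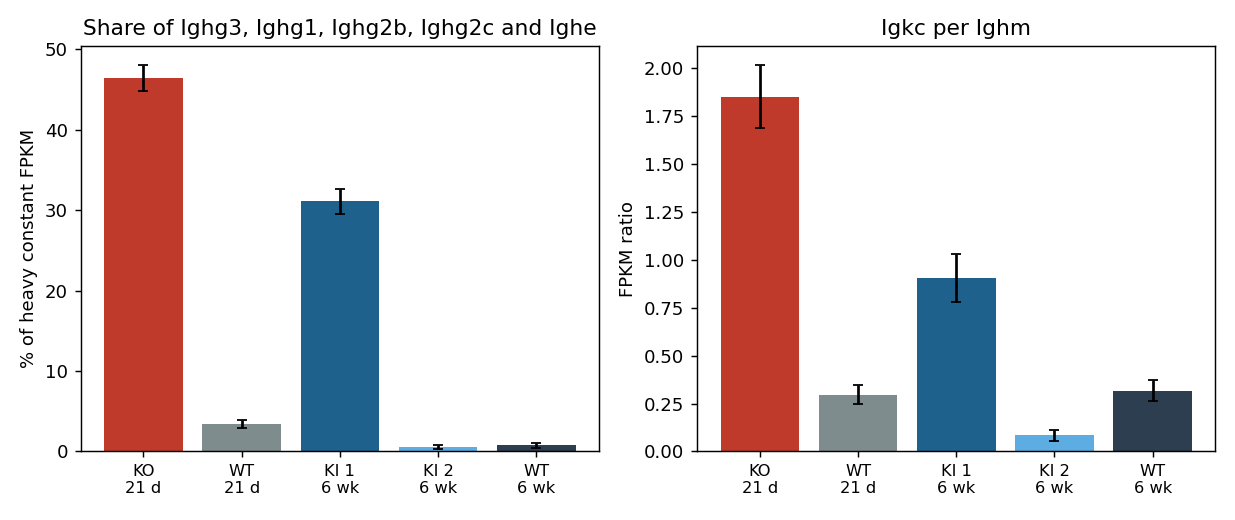
Left, the summed FPKM of 5 switched constant genes as a percentage of the summed FPKM of these 5 and Ighm in each library, without Igha and Ighd. Right, the FPKM of Igkc per FPKM of Ighm. Bars start at 0 and error bars are 2 SE. KO stands at 46.4% and KI replicate 1 at 31.1%, with the other 3 libraries at 3.41% or less, and the same 2 libraries lead on the right, at 1.85 and 0.904.

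Igkc, which most mouse antibodies use for their light chain, lies at 6:70726435-70726757 on the plus strand in the tables. It was at 399 in KO (369 to 430) against 55.2 in WT at 21 days (46.1 to 64.2), and at 110 in KI replicate 1 (95.6 to 125), 17.2 in KI replicate 2 (11.7 to 22.6) and 94.6 in WT at 6 weeks (78.7 to 111). KO was highest and KI replicate 2 lowest. Per Ighm it stood at 1.85 ± 0.0821 in KO and 0.296 ± 0.0250 in WT at 21 days, and at 0.904 ± 0.0625 in KI replicate 1, 0.0837 ± 0.0134 in KI replicate 2 and 0.316 ± 0.0275 in WT at 6 weeks (SE from the bounds). The WT libraries of both ages had overlapping ratios.

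The Igkc model is only 323 nt long, so its FPKM also depend on the length that Cufflinks subtracts for the fragment size. The values and bounds imply an effective length of 182 nt in KO and 96.6 nt in WT at 21 days, and of 88.8 nt in KI replicate 1, 84.7 nt in KI replicate 2 and 174 nt in WT at 6 weeks. As fragments per M of depth, which leave the length out, Igkc was at 83.1 in KO and 4.67 in WT at 21 days, and at 8.48 in KI replicate 1, 1.47 in KI replicate 2 and 19.0 in WT at 6 weeks. On this scale KI replicate 1 was below WT at 6 weeks, whereas in scaled FPKM its bounds overlapped those of that library, so the order of these 2 libraries is not settled. KO stayed highest and KI replicate 2 lowest on both scales. Iglc2, a lambda light chain constant gene, was at 2.83 in KO and 3.10 in WT at 21 days, and at 0.267 in KI replicate 1, 0.330 in KI replicate 2 and 4.99 in WT at 6 weeks. Unlike Igkc, it was low in both KI libraries and similar in KO and WT at 21 days.

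Variable genes encode the part of an antibody that binds antigen, and each B cell clone uses its own pair. Of 94 variable genes in the tables, 52 were above 0 in KO and 33 in WT at 21 days, and 30 in KI replicate 1, 19 in KI replicate 2 and 31 in WT at 6 weeks. Their summed scaled FPKM was 235 in KO and 37.3 in WT at 21 days, and 47.8 in KI replicate 1, 11.4 in KI replicate 2 and 58.9 in WT at 6 weeks. KO held the highest value of 41 of these genes and KI replicate 2 of 0. The leading gene in KO, Iglv1, held 9.75% of the sum there, so the signal was spread over many variable genes. Iglv1 was at 22.9 in KO and 3.35 in WT at 21 days, and at 1.20 in KI replicate 1, 1.13 in KI replicate 2 and 6.19 in WT at 6 weeks. The next of the KO library were Igkv15-103, at 17.1 in KO and 3.65 in WT at 21 days, Igkv8-30, at 13.1 and 0.801, and Ighv3-6, at 11.3 and 0.673, in the same order. Their KO values rested on about 29, 25 and 19 fragments. In WT at 6 weeks Igkv15-103 was at 3.45, Igkv8-30 was listed at 0 and Ighv3-6 was at 5.53. In KI replicates 1 and 2 Igkv15-103 was at 0.399 and 0.370, Igkv8-30 at 0.637 and 0.296, and Ighv3-6 at 2.43 and 0. Variable genes are short too, and their summed fragments per M of depth were 46.7 in KO and 3.66 in WT at 21 days, and 4.33 in KI replicate 1, 1.15 in KI replicate 2 and 11.0 in WT at 6 weeks.

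Cd79a and Cd79b, the signalling chains without which the receptor does not reach the cell surface, did not follow the constant genes. Cd79a was at 0.522 in KO (0.153 to 0.892) against 2.39 in WT at 21 days (1.90 to 2.87), and at 0.906 in KI replicate 1 (0.580 to 1.23), 0.231 in KI replicate 2 (0.0771 to 0.385) and 4.68 in WT at 6 weeks (3.47 to 5.88). Cd79b was at 4.79 in KO (3.48 to 6.11) against 8.93 in WT at 21 days (7.84 to 10.0), and at 2.06 in KI replicate 1 (1.499 to 2.61), 1.99 in KI replicate 2 (1.47 to 2.52) and 11.6 in WT at 6 weeks (9.47 to 13.8). Both genes had their highest values in the WT libraries, apart from KO and KI by their bounds. Ms4a1 was at 0.585 in KO (0.246 to 0.923) against 2.996 in WT at 21 days (2.52 to 3.47), and at 0.571 in KI replicate 1 (0.351 to 0.791), 0.454 in KI replicate 2 (0.272 to 0.636) and 2.49 in WT at 6 weeks (1.74 to 3.24). For Ms4a1 the bounds of KO and both KI libraries overlapped each other, as did those of the WT libraries.

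The summed scaled FPKM of Cd79a, Cd79b and Ms4a1 was 5.90 in KO and 14.3 in WT at 21 days, and 3.53 in KI replicate 1, 2.68 in KI replicate 2 and 18.8 in WT at 6 weeks. Per Cd79b, the FPKM of Ighg1 were 34.1 ± 4.76 in KO and 0.668 ± 0.0688 in WT at 21 days, and 23.4 ± 3.25 in KI replicate 1, 0.483 ± 0.121 in KI replicate 2 and 0.0783 ± 0.0286 in WT at 6 weeks (SE from the bounds). The KI replicates thus had nearly equal Cd79b with Ighg1 apart by a ratio of 49.8. Per Cd79b, Ighm was at 45.1 ± 6.28 in KO and 20.9 ± 1.33 in WT at 21 days, and at 59.2 ± 8.12 in KI replicate 1, 103 ± 13.6 in KI replicate 2 and 25.7 ± 2.46 in WT at 6 weeks (SE from the bounds). The 2 KI libraries had the least Cd79b and the highest ratios.

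**Figure D4:**
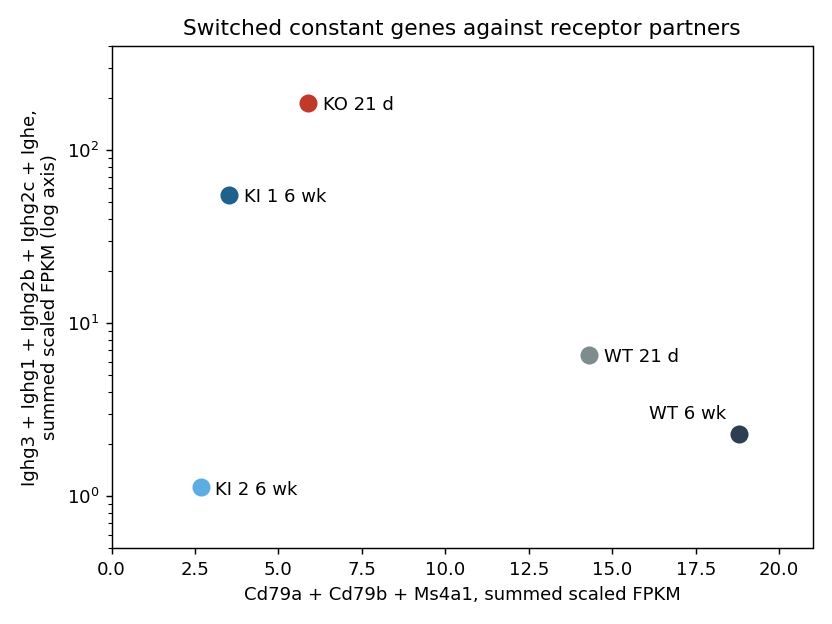
Summed scaled FPKM of 5 switched constant genes (vertical, log axis) against that of Cd79a, Cd79b and Ms4a1 (horizontal), 1 point per library. KO and KI replicate 1 lie high and left, KI replicate 2 low and left at 1.12 and 2.68, and the WT libraries right, at 14.3 and 18.8 on the horizontal axis.

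In KO against WT at 21 days, the comparison that chose the genes, the differences on the scale log2(scaled FPKM + 1) were 4.56 for Ighg1, 3.66 for Ighe, 2.83 for Igkc, 1.39 for Ighg2b, 0.21 for Ighm, -0.78 for Cd79b, -1.15 for Cd79a and -1.33 for Ms4a1. The filter on low values, a mean of 1 or more in scaled FPKM, was passed by 7 of the 8 genes, all but Ighg2b, and Ighe passed only through KO. Of the 7, 3 were higher in KO by over 2-fold (Ighg1, Ighe and Igkc), beside 6.14% of all 11294 genes, and 2 were lower (Cd79a and Ms4a1), beside 8.15%. Their median difference was 0.21, and that of all genes tested 0.02. Against WT at 6 weeks, sequenced to a depth like that of KO but of another age, the same 3 were higher in KO by over 2-fold (3.30% of all genes) and Cd79a, Cd79b and Ms4a1 were lower (2.29%). Ighg1 differed by 6.43 there, Ighe by 3.67 and Igkc by 2.07. With 1 library per group these differences have no replicate check.

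The filter takes its mean over all 5 libraries, and without KO it is passed by 6 of the 7 genes, all but Ighe. Apart from this filter and the scaling, KI against WT at 6 weeks does not involve the library that chose the genes. On the log2(scaled FPKM + 1) scale the difference was -2.06 ± 0.304 for Cd79b, -1.89 ± 0.377 for Cd79a and -1.21 ± 0.218 for Ms4a1 (SE, 2 KI libraries and 1 WT), and both KI libraries were lower than WT for each. With limma and Benjamini-Hochberg adjustment over all genes their adjusted p-values were 0.318, 0.396 and 0.379, so none of them passed the threshold of 0.05. It was -0.92 ± 0.436 for Ighm (adjusted p = 0.519 with limma), -1.09 ± 1.25 for Igkc (0.743), 0.46 ± 0.731 for Ighe (0.820) and 2.36 ± 2.203 for Ighg1 (0.694), with SEs near to or above the difference in the last 3. Limma called 0 of the 7 genes and 1 of all 11294 (0.00885%). At an unadjusted p under 0.05 it had 3 of the 7, Cd79a, Cd79b and Ms4a1, and 1211 of all genes. Its only residual degree of freedom comes from the spread of the KI replicates, and the single WT library is taken to vary as much.

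By size, Cd79a, Cd79b and Ms4a1 were lower than WT at 6 weeks by over 2-fold in both KI libraries, 3 of the 7 genes beside 2.80% of all genes, and 0 of the 7 were higher in both, beside 3.01%. This count was 1 with a pseudocount of 5 in place of 1, and also 1 among genes with a mean of at least 5. With KI replicate 2 left out it was 6, 4 lower and 2 higher, and with KI replicate 1 left out it was 4, all lower. Cd79b and Ms4a1 were lower by over 2-fold in each KI library than in each WT library, 2 of the 7 beside 0.345% of all genes. The median difference was -1.09 over the 7 genes and -0.0045 over all genes. In bulk samples, fewer cells of a type and less RNA per cell cannot be told apart.

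The KI replicates, 2 libraries with 1 label, differed from each other more in Ighg1, Ighe and Igkc than in the receptor chains. KI replicate 1 was above KI replicate 2 by over 2-fold in 3 of the 7 genes, Ighg1, Ighe and Igkc, beside 4.14% of all genes, and below it in 0, beside 2.44%. On the log2(scaled FPKM + 1) scale replicate 1 minus replicate 2 was 4.64 for Ighg1, 2.61 for Igkc, 1.51 for Ighe and 1.06 for Ighg2b, against 0.63 for Cd79a, 0.11 for Ms4a1, 0.03 for Cd79b and -0.75 for Ighm. The bounds of the replicates overlapped for Cd79b and Ms4a1 but not for Cd79a. As a ratio of scaled FPKM it was 49.8 for Ighg1, 39.0 for Ighe, 6.41 for Igkc and 3.92 for Cd79a, with Ighe resting on about 2 fragments in replicate 2. The 3 genes that were higher in KO by over 2-fold were thus also higher in KI replicate 1 than in KI replicate 2. Their mean over KI describes neither replicate. Of these, Ighe is among the 7 only through KO. Igkc in KI replicate 1 had bounds that overlapped those of WT at 6 weeks. In fragments per M of depth Igkc was at 8.48 in KI replicate 1 and 19.0 in WT at 6 weeks. A difference between the 2 KI libraries has no further replicate behind it.

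The WT libraries carry no Malt1 change but differ from each other in age and depth, with 1 library per age. Their difference is therefore not a spread among like samples. WT at 6 weeks was above WT at 21 days by over 2-fold in 0 of the 7 genes (3.38% of all genes) and below it in 1, Ighg1 (5.18%). Its scaled FPKM was 0.912 in the older and 5.97 in the younger WT library. Ighe differed by -0.01 on the log2(scaled FPKM + 1) scale, Cd79b by 0.35 and Ms4a1 by -0.20. For Cd79b and Ms4a1 this was less in size than the difference of each KI library from WT at 6 weeks. Igkc differed by 0.77, Ighm by 0.68 and Cd79a by 0.75.

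Most genes of B cell identity were low in these cells. Of 25 on the list, with 26 entries, 9 entries were at 1 or more in KO and 12 in WT at 21 days, and 8 in KI replicate 1, 7 in KI replicate 2 and 22 in WT at 6 weeks. Of these entries, 3 were highest in KO against 2 in WT at 21 days, and 1 was highest in each KI library against 19 in WT at 6 weeks. Pax5, the factor that maintains B cell identity, was at 0.118 in KO and 0.721 in WT at 21 days, and at 0.0635 in KI replicate 1, 0.0871 in KI replicate 2 and 1.19 in WT at 6 weeks. Its lower bound was 0 in all 5 libraries, so these values do not separate them. No share of all genes was worked out for the next count, which includes entries too low to be tested. Over the list, 12 of the 26 entries were higher in both WT libraries than in KO and both KI libraries. Others were not, such as Tnfrsf13b, a receptor for B cell survival factors, at 13.7 in KO and 23.4 in WT at 21 days, and 16.9 in KI replicate 1, 26.7 in KI replicate 2 and 19.4 in WT at 6 weeks. Cd72, an inhibitory B cell receptor, was at 5.70 in KO and 6.45 in WT at 21 days, and at 7.04 in KI replicate 1, 1.83 in KI replicate 2 and 11.7 in WT at 6 weeks. H2-Ob, which tunes antigen loading in B cells, was at 6.30 in KO and 14.4 in WT at 21 days, and at 14.9 in KI replicate 1, 11.7 in KI replicate 2 and 16.1 in WT at 6 weeks. The list summed to 184 scaled FPKM in KO and 203 in WT at 21 days, and to 174 in KI replicate 1, 174 in KI replicate 2 and 264 in WT at 6 weeks, of which Cd37, also read in T cells, gave 122 to 162. Of the 10 tested, limma called 0 in KI and had 4 at an unadjusted p under 0.05, all lower, with a median of -0.94. In KO, 0 of the 10 were higher and 2 lower than WT at 21 days by over 2-fold, with a median of -0.06. For this list and those below, 6.14% of all genes tested were higher in KO by this rule and 8.15% lower. At an unadjusted p under 0.05 limma had 1211 of all 11294 genes in KI, 561 of them lower.

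Plasma cell genes did not share 1 pattern over the 5 libraries, though their median was higher in KO than in WT at 21 days. Igj, the joining chain of secreted IgM and IgA, was highest in KO and lowest in KI replicate 2, as Igkc was, at 5.87 in KO and 1.22 in WT at 21 days, and 2.41 in KI replicate 1, 0.425 in KI replicate 2 and 3.52 in WT at 6 weeks. Sdc1, the plasma cell surface protein syndecan-1, was at 0.137 in KO and 0.119 in WT at 21 days, and at 0.0568 in KI replicate 1, 0.0169 in KI replicate 2 and 0.436 in WT at 6 weeks, with a lower bound of 0 in all 5. Tnfrsf17, the survival receptor of plasma cells, was listed at 0 in all 5 libraries. Xbp1, a factor of secretory cells also used in T cells, was at 53.7 in KO and 38.9 in WT at 21 days, and at 62.3 in KI replicate 1, 41.1 in KI replicate 2 and 30.8 in WT at 6 weeks. Txndc5, also on the list, was at 28.6 in KO and 14.5 in WT at 21 days, and Creld2 at 12.4 and 8.67. In KI replicates 1 and 2 and WT at 6 weeks, Txndc5 was at 18.5, 20.3 and 17.1, and Creld2 at 8.19, 9.46 and 13.4. Irf4 was lower in KO than in WT at 21 days, at 14.3 against 21.4. In KI replicates 1 and 2 it was higher than in WT at 6 weeks, at 31.1 and 39.5 against 11.3. Of 11 plasma cell genes in the tables, 7 were tested, and 1 was higher in KO than in WT at 21 days by over 2-fold, 0 lower. The median difference in KO was 0.47 for the 7 and 0.02 for all genes tested. In KI, limma called 0 of the 7 and had 1 at an unadjusted p under 0.05, with a median of 0.17.

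Of 19 listed switching and repair genes, most of which every dividing cell uses, 17 were tested, with 1 higher and 2 lower in KO than in WT at 21 days by over 2-fold, and 0 called by limma in KI (1 at an unadjusted p under 0.05). The one higher was H2afx, a histone marking broken DNA, at 65.1 in KO and 31.3 in WT at 21 days. Of the germinal centre list, 4 of 10 genes were tested, with 0 past 2-fold in KO in either direction and 0 called by limma in KI (0 at an unadjusted p under 0.05), and Bcl6, its main factor, was at 4.28 in KO and 6.61 in WT at 21 days.

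Of 20 genes that signal downstream of the B cell receptor, many of them shared with T cells, 16 were tested, with 2 higher and 0 lower in KO than in WT at 21 days by over 2-fold. Limma called 0 of the 16 in KI (2 at an unadjusted p under 0.05), and their median difference was 0.07. Of 10 genes for T cell signals that direct switching, 7 were tested, and 1 was higher in KO than in WT at 21 days by over 2-fold, 0 lower. Limma called 0 of the 7 in KI (2 at an unadjusted p under 0.05). Il4, named after its values were seen, was at 14.5 in KO and 0.675 in WT at 21 days, and at 2.67 in KI replicate 1, 2.203 in KI replicate 2 and 0.712 in WT at 6 weeks. It was thus highest in KO and nearly equal in the KI replicates, and any link of Il4 to Ighg1 or Ighe was not tested. Il4ra, a chain of its receptor, was at 50.1 in KO and 35.2 in WT at 21 days, and at 48.6 in KI replicate 1, 31.4 in KI replicate 2 and 35.7 in WT at 6 weeks.

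Of 11 genes for receptors that bind or carry antibody, 3 were tested, with 0 past 2-fold in KO against WT at 21 days in either direction and 0 called by limma in KI (1 at an unadjusted p under 0.05). Fcgr3, a low-affinity IgG receptor of myeloid and NK cells, was at 1.70 in KO and 0.512 in WT at 21 days, and at 1.30 in KI replicate 1, 0.209 in KI replicate 2 and 3.24 in WT at 6 weeks. Fcer2a, the low-affinity IgE receptor of B cells, was at 0.205 in KO and 1.67 in WT at 21 days, and at 0.219 in KI replicate 1, 0.142 in KI replicate 2 and 1.30 in WT at 6 weeks. Fcer2a was thus higher in both WT libraries than in the others, as Ms4a1 was.

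Markers of other cells also moved between the libraries, and their part in the values above was not tested. In the KI pair, Hbb-b1, a haemoglobin chain of red cells, was at 20.7 in replicate 1 and 2.50 in replicate 2, Lyz2, a lysozyme of myeloid cells, at 15.0 and 2.90, and Tyrobp, an adaptor of myeloid and NK cells, at 4.39 and 0.116, in the same order. In KO, where Ighg1 was highest, Hbb-b1 was at 1.63 against 3.37 in WT at 21 days, Lyz2 at 9.06 against 3.77 and Tyrobp at 3.22 against 1.24. In WT at 6 weeks, where Ighg1 was at 0.912, they were at 29.1, 25.9 and 50.1. Myeloid genes (10 listed) summed to 182 in KO and 181 in WT at 21 days, and to 198 in KI replicate 1, 158 in KI replicate 2 and 289 in WT at 6 weeks. Erythroid and platelet genes (6 of 8 in the tables) summed to 2.38 in KO and 6.60 in WT at 21 days, and to 26.1 in KI replicate 1, 3.48 in KI replicate 2 and 49.7 in WT at 6 weeks. Plasmacytoid dendritic cell genes (7 of 8) summed to 45.0 in KO and 44.2 in WT at 21 days, and to 21.5 in KI replicate 1, 28.4 in KI replicate 2 and 136 in WT at 6 weeks, the library in which Cd79a and Cd79b were also highest. Limma called 0 of these 7 in KI, and all 7 were lower at an unadjusted p under 0.05, as were 561 of all 11294 genes tested. These 3 lists were thus highest in WT at 6 weeks. By over 2-fold, KI replicate 1 was above KI replicate 2 in 3 of 7 tested myeloid genes and 2 of 3 erythroid and platelet genes. It was below in 0 of either list. Of all genes tested, 4.14% were higher and 2.44% lower by this rule. NK cell genes (7) summed to 20.8 in KO and 4.31 in WT at 21 days, and to 2.82 in KI replicate 1, 2.44 in KI replicate 2 and 11.5 in WT at 6 weeks. Mast cell and basophil genes (8) summed to between 0.862 in KI replicate 2 and 2.96 in WT at 6 weeks, with 2.63 in KO, and their IgE receptor chains Fcer1a and Ms4a2 were listed at 0 in all 5 libraries.

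**Figure D5:**
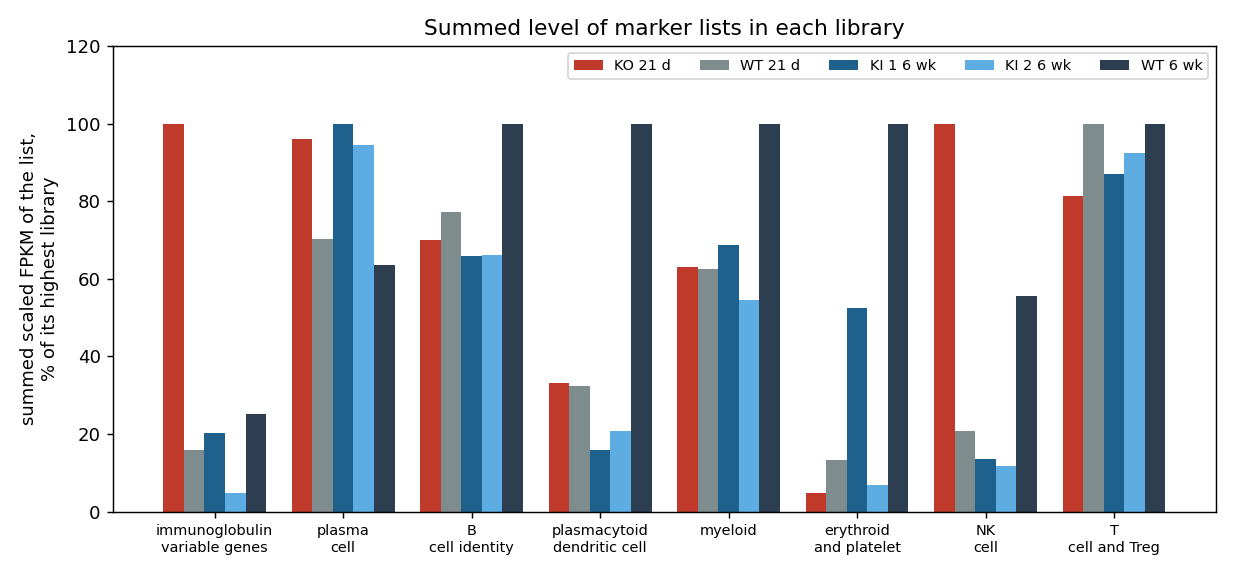
Summed scaled FPKM of 8 gene lists in each library, as a percentage of the library with the highest sum (vertical axis, from 0; 1 group of bars per list). Variable genes are highest in KO, at a sum of 235, and B cell identity genes in WT at 6 weeks, at 264, as are myeloid, plasmacytoid dendritic cell, and erythroid and platelet genes.

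The genes most like Ighg1 over the 5 libraries, by Pearson's r of log2(scaled FPKM + 1), were Slc39a11 (r = 0.996), Wwox (0.993), Ap4m1 (0.992), Slc35b2 (0.990) and Sbds (0.988). The range of Slc39a11 was narrow, at 7.60 in KO and 6.36 in WT at 21 days, and 7.09 in KI replicate 1, 5.67 in KI replicate 2 and 5.69 in WT at 6 weeks. With 5 libraries, 178 of 11253 candidate genes had r above 0.9, so the order of likeness carries little weight. Those most like Cd79a were Sympk (r = 0.995), Ypel3 (0.993), VKORC1 as the tables spell it (0.993), Klc4 (0.992) and Prcp (0.991), among 172 with r above 0.9. None of these 10 is a B cell marker on the lists used.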

How the data were processed

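RNA was sequenced from 5 libraries of sorted mouse Treg cells. CASAVA, HISAT2 2.1.0 and Cufflinks 2.2.1 with build GRCm38 are named in the submitters' processing notes, which assign no roles. Each deposited table holds FPKM per gene with lower and upper bounds, per the file headers. No counts are given, so depth and fragments per gene were estimated from the bounds, taken as 2 SE. The strand setting is not known here.

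FPKM were divided by median-of-ratios factors (9874 genes at 1 or more in all libraries; factors 0.868 to 1.15) and compared as log2(scaled FPKM + 1), so differences of low genes are understated. Tests covered the 11294 genes with a mean of at least 1 and status OK; 2 entries had another status. For KI against WT at 6 weeks, limma 3.58.1 in R 4.3.3 was run with a mean-variance trend, two-sided, and p-values were adjusted by Benjamini-Hochberg (threshold 0.05); this step was tested on simulated data. Comparisons with 1 library per group were counted by size (2-fold). Nothing in the labels ties libraries to separate mice, so the spread that p-values measure may be technical. Tables were made with Python 3.11.15 (pandas 2.3.3, numpy 2.4.6, matplotlib 3.10.9). Tried alternatives were scaling, pseudocount, filter, control library, limma design and leaving out each KI library.

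The 8 genes, the gene lists and the tests were chosen with earlier results of these data known. Besides the 8, constant genes, the 4 highest genes of each list, Pax5, Sdc1 and Igj, and the 5 genes most like Ighg1 and Cd79a could be named; Il4, Tnfrsf17, Fcer1a and Ms4a2 were added after their values were seen. Some genes that the naming rule covers are not reported here.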

Additional observations from a re-analysis of the deposited data

How the results depend on the processing

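Limma called 0 of the 4 to 8 of these genes that were tested in KI against WT at 6 weeks under all 10 alternatives run, with 1 to 3 at an unadjusted p under 0.05. Over all genes it called 1 as reported, 50 with a pseudocount of 0.1, 26 with a mean of at least 5, and 0 or 1 under the others. Leaving out a KI library leaves 1 library per group, with no residual degree of freedom, so that alternative has no test. The 3 genes past 2-fold in both KI libraries became 1 with a pseudocount of 5 and 1 with a mean of at least 5. Without 1 KI library the count ran from 4 (without replicate 1, all lower) to 6 (without replicate 2, 4 lower and 2 higher), since 1 library then decides. The 3 genes higher in KO ranged from 2 to 4. Of 124 other values for single genes, 110 stayed the same or moved by less than the spread. Another 11, all in KO against WT at 21 days, moved by more, and 3 turned round with a KI replicate left out. In KI, Ighg1 counted as the same although it was 2.36 with both libraries and 0.04 without replicate 1. The filter and the limma design cannot change the difference of a single gene. Values under those settings are unchanged by construction and are counted among the 110, so this count overstates how stable the values are. Against WT at 6 weeks, KI gave 0.08 for Ighg2b with both libraries and between -0.45 and 0.61 with 1 of them, 0.46 for Ighe with a range of -0.30 to 1.21, and -1.09 for Igkc with a range of -2.40 to 0.22; each lower value is without replicate 1. Ighg1 gave 2.36 with both, 0.04 without replicate 1 and 4.68 without replicate 2, and Ighm gave -0.92, -0.54 and -1.29 in the same order. Without scaling, the median difference of all genes in KI was -0.26. No paired analysis was possible because the groups compared share fewer than 2 replicate numbers. Values of about 10 fragments or fewer, such as Ighg1 in WT at 6 weeks, Ighg2b, Ighe and Cd79a in some libraries, and Pax5 and Sdc1 with lower bounds of 0, are limited by depth, and KO and WT at 6 weeks are the shallow libraries.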
